A study of Mus musculus with 6 samples.

Results

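The genes described here are the 10 mouse genes of the MHC class II presentation route: the cell-surface chains H2-Aa, H2-Ab1 and H2-Eb1, the invariant chain gene Cd74, the peptide-loading genes H2-DMa, H2-DMb1, H2-DMb2, H2-Oa and H2-Ob, and the transactivator gene Ciita. They are defined by gene symbol, but they were chosen with earlier results of these data known. They hold 25 of the 93480 transcripts and 10 of the 38483 genes in the deposited table. RNA was sequenced from spleen CD4+CD62L+ T cells of B10.RIII mice, 3 cultures from IL-17A+/+ wild-type and 3 from IL-17A-/- knockout animals, each kept for 3 days in Th17-polarizing medium. The cytokines in all 6 cultures were IL-6 (10 ng/ml), IL-23 (10 ng/ml) and TGF-β (1 ng/ml), and neutralizing antibodies to IFN-γ (10 µg/ml) and IL-4 (10 µg/ml) were present in both genotypes. The labels give no age, sex or litter for the animals and do not say how the knockout allele was made.

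Class II molecules are pairs of an α and a β chain that display peptides from endosomes to CD4+ T cells. The chains assemble on the invariant chain CD74, the DM heterodimer then exchanges the remaining CD74 fragment for peptide, and the DO heterodimer, made by H2-Oa and H2-Ob, restrains DM. CIITA switches on this group of genes by joining the RFX, CREB and NF-Y proteins on conserved promoter boxes, and in mice B cells, dendritic cells and activated macrophages make most of it, whereas T cells make little.

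The 8 members whose symbols begin with H2 lie within 223.9 kb of chromosome 17 (34092340 to 34316199, GRCm38), in the order H2-Oa, H2-DMa, H2-DMb2, H2-DMb1, H2-Ob, H2-Ab1, H2-Aa and H2-Eb1. The class I peptide transport and proteasome genes Psmb9, Tap1, Psmb8 and Tap2 lie among them, between H2-DMb1 and H2-Ob. Cd74 is on chromosome 18 (60803848 to 60812646) and Ciita on chromosome 16 (10488178 to 10527564). B10.RIII mice carry the r haplotype of this region, while the reference genome is that of C57BL/6J with the b haplotype, so reads of the polymorphic chains were placed on another haplotype's sequence. Whether that lowered the counts of H2-Aa, H2-Ab1 and H2-Eb1 was not tested. It applies to both genotypes, which carry the same strain label.

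Promoter sequences are shown because they carry the boxes through which CIITA acts, in members that differed between the genotypes to unlike degrees. RefSeq promoter windows on GRCm38.p6, 250 bases before to 50 after a start site, were given for 7 of the 10 members. For 6 of these (H2-Aa, H2-Eb1, H2-DMb1, H2-DMb2, H2-Oa and H2-Ob) a transcript of the deposited table starts 0 to 119 nt from the RefSeq start. The distance was largest in H2-DMb1. For H2-DMa the nearest window lay 9664 nt from a transcript start and was not used. The stretches of 5 of them are given 5′ to 3′ on the gene's strand, from 12 bases before the first box to 4 after the second. Capitals mark an X box search pattern, CNNNNAAC, and the Y box letters, TGATTGG.

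H2-Aa, chr17:34287863-34287919, minus strand: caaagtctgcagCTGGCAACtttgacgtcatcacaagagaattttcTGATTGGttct
H2-Eb1, chr17:34305761-34305816, plus strand: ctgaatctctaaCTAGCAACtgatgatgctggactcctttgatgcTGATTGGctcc
H2-Ob, chr17:34238803-34238856, plus strand: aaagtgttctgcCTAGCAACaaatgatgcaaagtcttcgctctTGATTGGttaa
H2-DMb2, chr17:34145111-34145167, plus strand: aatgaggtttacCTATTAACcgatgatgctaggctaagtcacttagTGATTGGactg
H2-Oa, chr17:34092288-34092344, plus strand: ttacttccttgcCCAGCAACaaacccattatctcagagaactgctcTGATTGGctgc

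All 6 windows, that of H2-DMb1 included, held both patterns in this order on the gene's own strand. Those of H2-DMb1 lie inside its counted transcript, which starts 119 nt before the RefSeq start. In H2-Oa the second pattern reaches the first base of the counted transcript. The starts of the patterns were 34 bases apart in H2-Aa, H2-DMb1, H2-DMb2 and H2-Oa, 33 in H2-Eb1 and 31 in H2-Ob. The pair at 31 to 34 bases, searched on both strands, occurred in 43 of 32851 RefSeq promoter windows (0.131%), of which 7 belong to class II genes of this region, and TGATTGG alone occurred in 7.82% of windows. None of the 7 class I presentation genes with a window held the pair. The patterns and the spacing were written after these promoters had been read, so the match describes them and tests nothing. A C57BL/6J sequence also need not be that of B10.RIII.

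Levels are given per library, or as mean ± SD with n = 3 per genotype, in CPM (counts per 1000000 counts of the scaled library). The main test, knockout minus wild-type, was the quasi-likelihood test of edgeR, run over 15121 genes and adjusted by Benjamini-Hochberg, with calls at an adjusted p under 0.05. The libraries also carry replicate numbers, which were taken to pair them across genotypes from the correlations given under the processing account. The fits with the number as a block are called paired here. Libraries held 47335736 to 49743762 estimated counts. The deleted gene Il17a stood at 160.6, 211.1 and 107.8 CPM for wild-type 1 to 3 but 1.11, 0 and 0.0202 CPM for knockout 1 to 3, which matches the labels; a count of 0 allows up to 3 counts. Sex-linked transcripts set the libraries of pairs 1 and 2 apart but not those of pair 3: Xist was at 2.58 and 0 CPM in knockout 1 and 2, against 567 to 664 CPM in the other 4 libraries. The part of this in the class II values was not tested.

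The antigen-presenting chains were higher in the knockout library of every pair, by 1.37-fold to 2.58-fold, while the level ranged from 14.0-fold to 20.3-fold over the 6 libraries. H2-Aa, the α chain of the I-A molecule, was at 106.8, 53.4 and 11.3 CPM in wild-type 1, 2 and 3 and at 229.4, 123.5 and 21.1 CPM in knockout 1, 2 and 3. The number 1 libraries were highest and the number 3 libraries lowest in both genotypes, and the ranges of the genotypes overlapped. The knockout to wild-type ratio was 2.15, 2.31 and 1.87 in pairs 1, 2 and 3. In paired DESeq2 its log2 change was 1.07 (SE 0.13, adjusted p 3.34e-13), the smallest p of all genes in that fit. In the main edgeR test the log2 change was 1.12 (SE 0.97, adjusted p 0.9999), and the paired edgeR fit gave 1.07 (SE 0.11, adjusted p 0.217). That adjusted p was the lowest of any gene in the paired edgeR fit and was shared by 7 genes.

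H2-Ab1, the partner β chain of I-A, was at 71.5, 33.0 and 9.21 CPM in wild-type cultures against 139.0, 80.6 and 18.9 CPM in knockout cultures. Its order over the libraries was that of H2-Aa, and the genotypes again overlapped. The ratio was 1.94, 2.44 and 2.05 in the 3 pairs, with a paired DESeq2 change of 1.08 (SE 0.14, adjusted p 1.71e-11) and a paired edgeR adjusted p of 0.217. H2-Ab1 stood at 0.606 to 0.896 of H2-Aa in the 6 libraries, although H2-Aa itself spanned 20.3-fold.

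H2-Eb1, the β chain of the I-E molecule, was at 125.2, 63.2 and 19.9 CPM in wild-type cultures against 279.0, 163.5 and 27.3 CPM in knockout cultures. Its knockout excess was smallest in pair 3, at 1.37-fold against 2.23-fold and 2.58-fold in the other two. Paired DESeq2 put it at 0.99 (SE 0.19, adjusted p 5.04e-05), and the paired edgeR adjusted p was 0.355. The α chain of I-E is listed in the table as H2-Ea-ps, since the C57BL/6J copy is a pseudogene, and it was looked up after the values of the members were seen. It was at 55.3, 26.3 and 7.67 CPM in wild-type cultures against 123.7, 70.6 and 13.4 CPM in knockout cultures, so a gene that is silent in the reference strain was counted in all 6 libraries of this r haplotype strain.

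**Figure D1:**
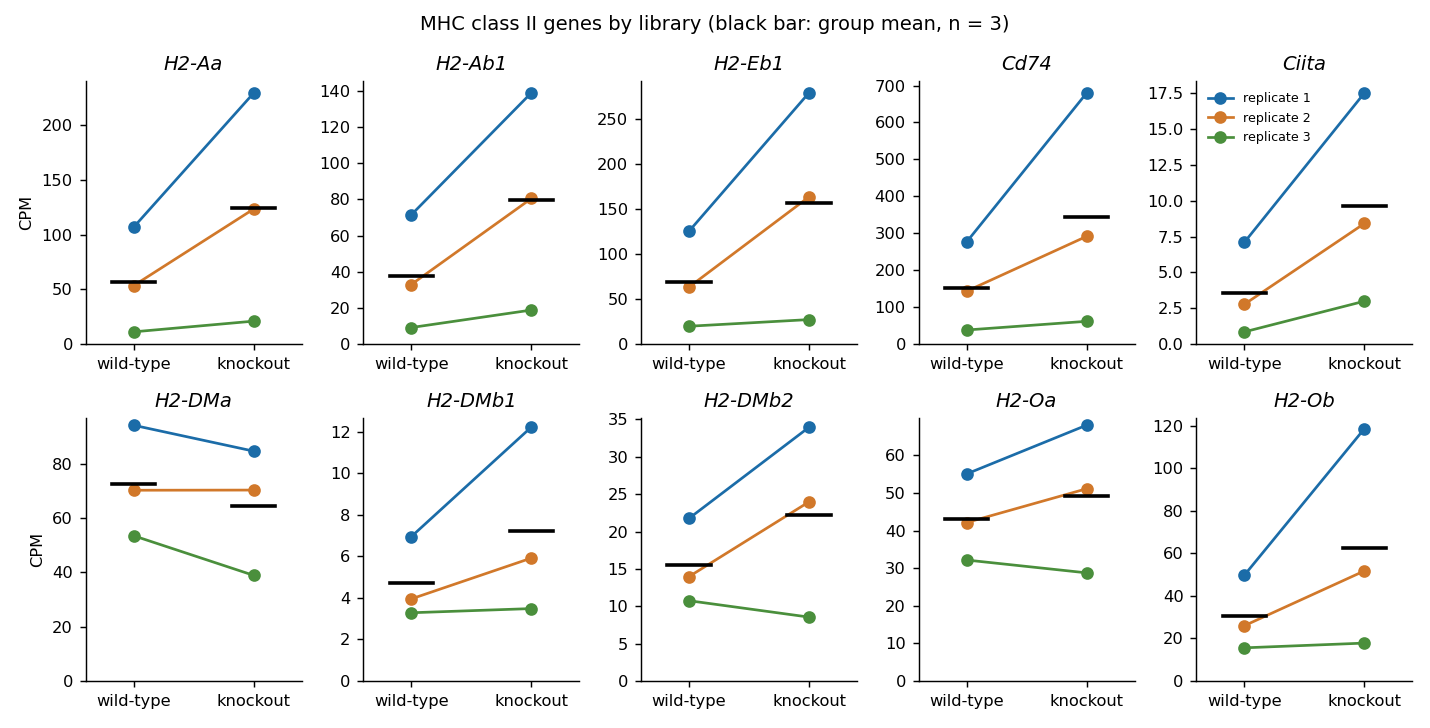
Level of each of the 10 genes in CPM (vertical axes, each from 0) in wild-type and knockout libraries; points are libraries, lines join libraries of the same replicate number, and black bars are group means of 3. Within each genotype the number 1 library is highest in every panel, and the pair 1 values of H2-Aa, 106.8 and 229.4 CPM, lie above those of pair 3, 11.3 and 21.1 CPM.

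Cd74 encodes the invariant chain, which plugs the groove of new class II molecules and guides them to endosomes. It was at 276.5, 143.4 and 38.4 CPM in wild-type cultures against 680.0, 291.9 and 62.0 CPM in knockout cultures. Knockout 1 was the highest and wild-type 3 the lowest library, 17.7-fold apart, and the genotypes overlapped. The ratio was 2.46, 2.04 and 1.61 in the 3 pairs. Paired DESeq2 gave a change of 1.00 (SE 0.15, adjusted p 9.95e-09) and the paired edgeR fit an adjusted p of 0.254.

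Ciita encodes the transactivator of class II genes. It was at 7.08, 2.77 and 0.857 CPM in wild-type cultures, from 345, 123 and 41 estimated counts, and at 17.5, 8.41 and 3.00 CPM in knockout cultures, from 895, 411 and 148. Knockout 3 lay between wild-type 1 and wild-type 2, so the ranges overlapped, yet each knockout library exceeded its partner by 2.47-fold, 3.03-fold and 3.497-fold. Its paired DESeq2 change of 1.54 (SE 0.26, adjusted p 2.11e-06) was the largest among the 10 members, and the paired edgeR adjusted p was 0.220. Ciita per unit of Cd74 was 0.0224 ± 0.00315 in wild-type and 0.0343 ± 0.0123 in knockout libraries. That ratio was higher in each knockout library than in any wild-type library by a narrow margin (0.0257 in knockout 1 against 0.0256 in wild-type 1). An exact two-sided permutation test of 3 against 3 cannot give a p below 0.1, so no such ratio could pass a threshold of 0.05.

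The DM genes, which make the peptide exchange factor, differed less between genotypes and between libraries. H2-DMa, the α chain, was at 94.3, 70.3 and 53.6 CPM in wild-type cultures against 84.8, 70.4 and 38.9 CPM in knockout cultures, a ratio of 0.899, 1.00 and 0.727 in the 3 pairs. It was the 1 member whose knockout mean lay below the wild-type mean, with a paired DESeq2 change of -0.21 (SE 0.14, adjusted p 0.683). H2-DMb1, a β chain, was at 6.94, 3.95 and 3.28 CPM in wild-type cultures against 12.2, 5.91 and 3.48 CPM in knockout cultures. Its neighbour H2-DMb2, the other β chain, was at 21.7, 14.0 and 10.7 CPM against 33.96, 24.0 and 8.54 CPM. Both β chain genes were higher in the knockout in pairs 1 and 2, and in pair 3 the ratio was 1.06 for H2-DMb1 and 0.795 for H2-DMb2. Paired DESeq2 gave 0.49 (SE 0.28, adjusted p 0.553) for H2-DMb1 and 0.36 (SE 0.25, adjusted p 0.709) for H2-DMb2. These paralogs are similar in sequence, and how reads were divided between them is uncertain.

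The pair of DO chain genes differed in size of change. H2-Oa, the α chain, was at 55.0, 42.1 and 32.2 CPM in wild-type cultures against 68.0, 51.1 and 28.7 CPM in knockout cultures, a change of 0.13 in paired DESeq2 (SE 0.16, adjusted p 0.899). H2-Ob, the β chain, was at 49.7, 25.95 and 15.6 CPM in wild-type cultures against 118.7, 51.8 and 17.8 CPM in knockout cultures. H2-Ob was 2.39-fold, 1.99-fold and 1.14-fold higher in the knockout of pairs 1, 2 and 3, while the ratios of H2-Oa were 1.24, 1.21 and 0.894. The paired DESeq2 change of H2-Ob was 0.81 (SE 0.22, adjusted p 0.0126) and the paired edgeR adjusted p 0.387. Without pair 1 or without pair 2, H2-Ob no longer passed in DESeq2 (adjusted p 0.434 and 0.181).

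**Figure D2:**
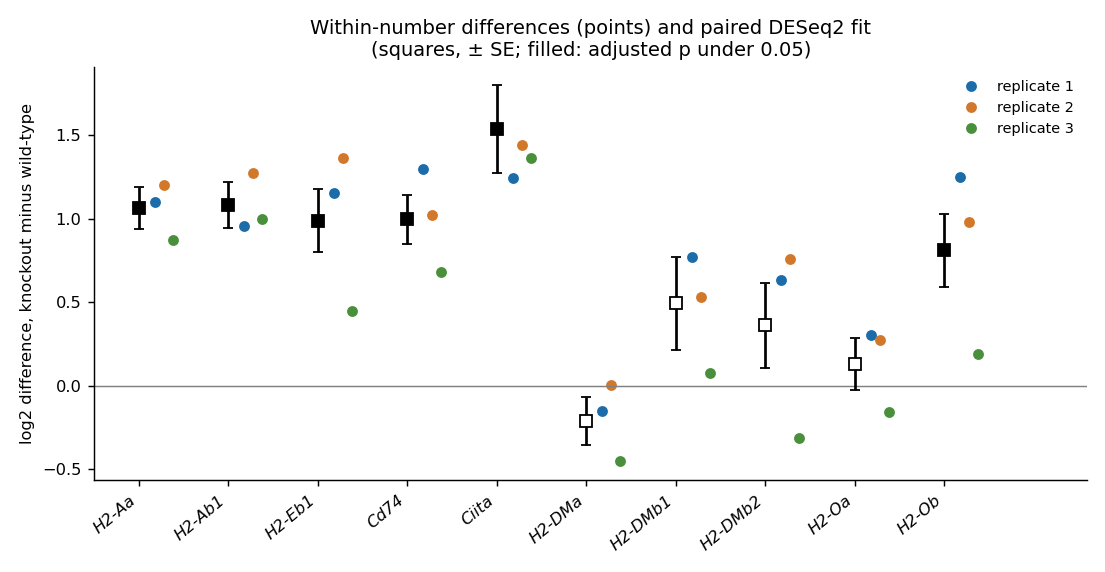
Log2 difference of knockout minus wild-type for each gene (vertical axis); coloured points are the 3 pairs on log2(CPM + 0.5), and squares are the paired DESeq2 change ± SE, filled where the adjusted p is under 0.05. The filled squares lie from 0.81 (H2-Ob) to 1.54 (Ciita), and the open ones from -0.21 (H2-DMa) to 0.49 (H2-DMb1).

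Whether these differences passed turned on the pairing and the tool. The main edgeR test called 0 of the 10 members, against 0.0% of all genes, and 0 members had an unadjusted p under 0.05, against 1.67% of all genes. DESeq2 without the block also called 0, against 0.086% of all genes, and limma-voom called 0, against 0.0%. With the block, DESeq2 called 6 members higher and none lower (H2-Aa, H2-Ab1, H2-Eb1, Cd74, Ciita and H2-Ob), against 1.02% of all genes called higher. edgeR and limma-voom with the block called 0, in each case against 0.0% of all genes. The deleted gene Il17a did not pass in these fits either (adjusted p 0.217 in paired edgeR and 0.148 in paired limma-voom). It passed in DESeq2 without the block (adjusted p 0.00855) and with it (adjusted p 4.44e-06). The absence of calls in edgeR and limma-voom therefore cannot show that a gene did not differ. At an unadjusted p under 0.05 the paired edgeR fit had 6 members higher, against 4.42% of all genes, and the paired limma-voom fit 7, against 5.15%.

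Direction within pairs does not depend on a fit. A total of 7 members were higher in the knockout in all 3 pairs, and these were the 6 just named and H2-DMb1, against 16.6% of all genes. No member had genotype ranges that did not overlap, against 6.14% of all genes in either direction and 3.01% higher in knockout. The median log2 change of the 10 members was 1.06 without and 0.90 with the block in edgeR and DESeq2 respectively, beside medians near 0 over all genes (0.02, 0.00 and -0.01 in pairs 1, 2 and 3). The member medians within pairs 1, 2 and 3 were 1.03, 1.00 and 0.32. Pairs 1 and 2 are also those whose libraries sex-linked transcripts set apart, and the part of this in the medians was not tested. The unpaired median rested on single libraries: it was 0.20 without knockout 1, 0.60 without wild-type 3, 1.49 without knockout 3 and 1.75 without wild-type 1. The paired DESeq2 fit called 5, 5 and 6 members without pairs 1, 2 and 3.

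Members of the route differed mostly in how widely they ranged over libraries. Ciita spanned 20.4-fold from the lowest to the highest library, H2-Aa 20.3-fold, Cd74 17.7-fold, H2-Ab1 15.1-fold, H2-Eb1 14.0-fold and H2-Ob 7.62-fold. H2-DMb2 spanned 3.98-fold, H2-DMb1 3.73-fold, H2-DMa 2.42-fold and H2-Oa 2.37-fold, beside a median of 1.76-fold over all tested genes with a value above 0 in each library. The wide members are those that passed in paired DESeq2. The promoter patterns above were written from wide (H2-Aa, H2-Eb1, H2-Ob) and narrow members (H2-DMb1, H2-DMb2, H2-Oa). Their presence in all 6 was therefore fixed and cannot set wide and narrow members apart. The wide members H2-Ab1, Cd74 and Ciita and the narrow member H2-DMa had no usable window. The balance between loading factor and chains differed by library: H2-DMa stood at 0.341, 0.490 and 1.39 of Cd74 in wild-type 1, 2 and 3 and at 0.125, 0.241 and 0.628 in knockout 1, 2 and 3. Within pairs 1, 2 and 3 the log2 ratio of H2-DMa to Cd74, knockout minus wild-type, was -1.45, -1.02 and -1.15, lower in the knockout each time. The mean of these differences was -1.21. The wild-type log2 ratios themselves had an SD of 1.05, a spread between replicate numbers and not of the within-pair differences.

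Levels per kilobase of transcript correct for length but not for any reads of H2-Aa, H2-Ab1 and H2-Eb1 lost on another haplotype's sequence. Such a loss was not tested, so the places of these chains among the members are uncertain. Cd74 had the highest mean of the members in wild-type libraries, at 123 ± 96.1 CPM per kb, but in wild-type 3 H2-DMa (42.6) lay above Cd74 (31.1). H2-Eb1 (59.0 ± 44.9), H2-DMa (57.1 ± 17.8), H2-Aa (52.9 ± 42.9), H2-Oa (39.2 ± 10.4) and H2-Ab1 (36.5 ± 30.8) came next, with neighbours that did not differ beyond their SD. H2-Ob was at 14.4 ± 8.63, H2-DMb2 at 12.9 ± 4.70, H2-DMb1 at 3.40 ± 1.39 and Ciita at 0.678 ± 0.607 CPM per kb. In the knockout libraries Cd74 again had the highest mean, at 278 ± 252 CPM per kb, followed by H2-Eb1 at 133 ± 107 and H2-Aa at 117 ± 97.4. H2-DMa was at 50.6 ± 17.02 CPM per kb there, and in knockout 3 H2-DMa (31.98) and H2-Oa (26.2) lay above H2-Eb1 (23.2) and H2-Aa (18.6).

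**Figure D3:**
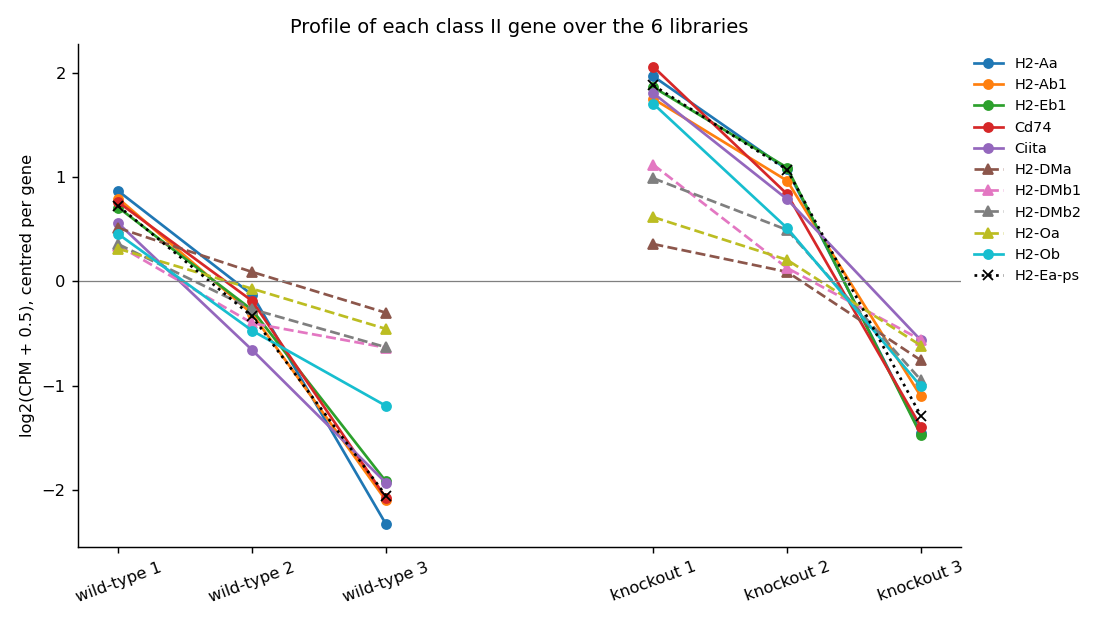
log2(CPM + 0.5) of each gene minus its own mean over the 6 libraries (vertical axis), by library (horizontal axis); solid lines are the 6 wide-ranging members, dashed lines the other 4 and the dotted line H2-Ea-ps, and lines only join the values of a gene within a genotype. The solid and dotted lines nearly coincide for the chains and Cd74, and the dashed lines are flatter.

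Across the whole table, the gene closest in profile to the chains was the other I-E chain. Likeness was the root mean square difference, in log2 units, between a gene's centred profile over the 6 libraries and the mean profile of H2-Aa, H2-Ab1, H2-Eb1 and Cd74, ranked over 12675 genes with a mean of at least 1 CPM. H2-Ea-ps ranked first at 0.07, nearer than the 4 reference genes themselves, which lay at 0.09 to 0.13. The next nearest genes outside the members lay at 0.30 to 0.35 and included Mndal, Lyn, Mpeg1, Serpina3g, Phf11a, Ifi203 and Xaf1. Lyn encodes a Src family kinase of B cells and myeloid cells, and Mpeg1 a pore-forming protein of macrophages. Ciita ranked 21 at 0.40 and H2-Ob 42 at 0.48, while H2-DMb2, H2-DMb1, H2-Oa and H2-DMa lay between 0.78 and 1.08. The 6 libraries share 2 genotypes and 3 replicate numbers, so few independent points stand behind a profile.

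Markers of other cell types also varied over these libraries, though not all in the order of the class II genes. Summed over 14 B cell marker genes found in the table, the level was 820, 453 and 349 CPM in wild-type 1, 2 and 3 and 1560, 943 and 529 CPM in knockout 1, 2 and 3. Of these 14 genes 11 were higher in the knockout in all 3 pairs, against 16.6% of all genes. Paired DESeq2 called 7 higher, against 1.02% of all genes, and none lower. None was at 0 in all libraries. Ighm, the marker with the highest level, was at 279 ± 125 and 440 ± 262 CPM. Igkc was at 128, 122 and 89.2 CPM in wild-type cultures against a flat 256, 247 and 265 CPM in knockout cultures. It was the 1 marker of this list whose genotype ranges did not overlap, against 3.01% of all genes higher in knockout. Ebf1 was at 7.74, 4.53 and 10.1 CPM in wild-type cultures against 15.7, 6.89 and 6.07 CPM in knockout cultures. The 10 class II members summed to 815, 452 and 195 CPM in the wild-type and to 1663, 871 and 230 CPM in knockout cultures. Class II CPM per CPM of all 14 markers was 0.850 ± 0.252 in wild-type and 0.808 ± 0.331 in knockout libraries, and it spanned 2.45-fold over the 6 libraries. Class II CPM per CPM of the 12 B cell markers that are not immunoglobulin genes was 3.00, 4.56 and 2.56 in wild-type and 2.76, 3.38 and 2.69 in knockout libraries. The latter ratio spanned 1.78-fold over the libraries, against 8.52-fold for the class II sum and 7.90-fold for these markers. For H2-Aa, H2-Ab1, H2-Eb1 and Cd74 alone, the ratio to the same markers was less even. It was 2.14, 2.96 and 1.04 in wild-type and 2.21, 2.56 and 1.51 in knockout libraries. This narrower ratio spanned 2.86-fold, against 16.8-fold for the summed CPM of those 4 genes. In bulk RNA, fewer cells of a type and less RNA per cell cannot be told apart, and the part of B cells in the class II values was not tested.

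Macrophage and monocyte markers, 10 genes, summed to 60.5, 114 and 16.2 CPM in wild-type cultures against 100, 206.5 and 31.8 CPM in knockout cultures. Of the 10, 6 were higher in the knockout in all pairs, against 16.6% of all tested genes. The 6 were counted over all 10 genes, of which only 7 had enough counts to be tested, so the gene sets differ. Paired DESeq2 called 3 of the 7 tested higher (Itgam, Mpeg1 and Clec7a), against 1.02% of all genes. The summed level was highest in the number 2 libraries of both genotypes, although Mpeg1 was highest in the number 1 libraries as the class II genes were, and Lyz2, the most abundant, had 58.7 CPM (wild-type 2) and 116 CPM (knockout 2) there. Dendritic cell markers, 8 genes, summed to 19.2 to 38.8 CPM in wild-type and 22.4 to 57.5 CPM in knockout libraries. None of the 8, of which 5 were tested, was higher in all pairs, against 16.6% of all tested genes. Siglech was at 0 in every library, and Itgax, the most abundant, was at 12.3 ± 7.35 and 15.8 ± 12.7 CPM. CD8 markers, Cd8a and Cd8b1, summed to 423, 92.6 and 71.3 CPM in wild-type cultures against 658, 114 and 112 CPM in knockout cultures, highest in the number 1 libraries as the class II genes were. The T cell list of 8 genes, led by Cd3g at 812 ± 274 and 876 ± 166 CPM, was high in all libraries, with sums of 2983 to 4042 CPM. Paired DESeq2 called 2 of the 8 lower in knockout, Cd5 and Cd6, against 227 of all 15121 genes called lower (2.52% in either direction). Cd4, the marker of the labelled cells, was lowest in knockout 1, at 246 CPM against 380 to 634 CPM in the other 5 libraries. The part of macrophages, dendritic cells and CD8 cells in the class II values was not tested.

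**Figure D4:**
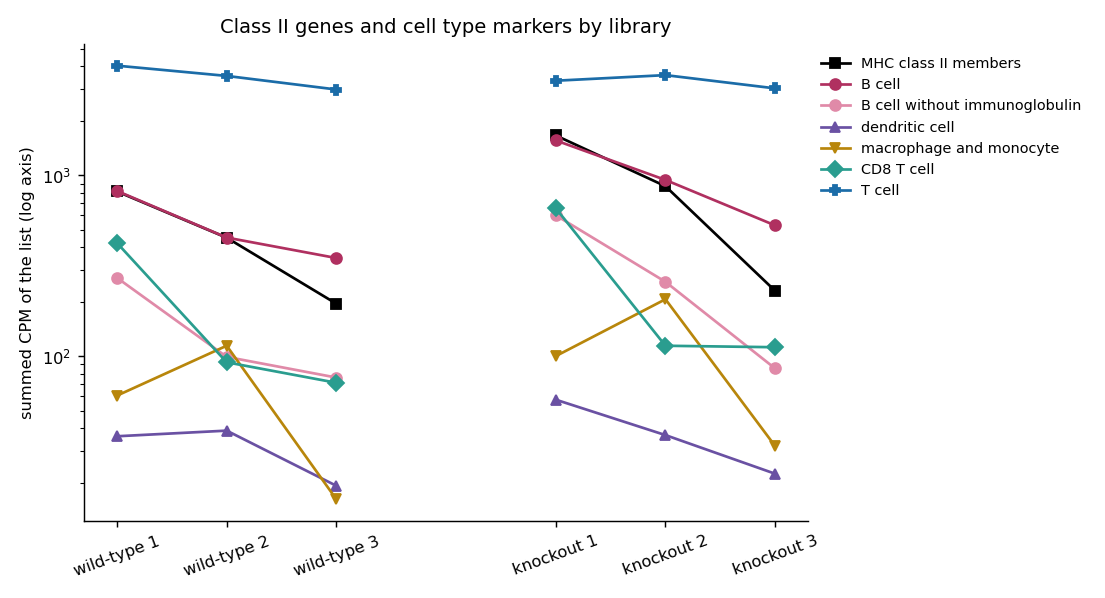
Summed CPM (vertical log axis) of the class II members and of the marker lists in each library (horizontal axis); lines join the libraries of a genotype. The class II sum ranges from 195 to 1663 CPM and the B cell sum from 349 to 1560 CPM, while the T cell sum stays between 2983 and 4042 CPM.

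Of the 42 remaining genes of the presentation route, no gene passed in the main edgeR test (0 also by unadjusted p under 0.05). Paired DESeq2 called 3 of the 42 higher and none lower, against 1.02% of all genes called higher and 2.52% in either direction. Those 3 were Ctsh, Ctss and Ifng. Ctsh, an endosomal cysteine protease gene, was at 16.98, 12.9 and 4.70 CPM in wild-type cultures against 34.9, 24.1 and 6.58 CPM in knockout cultures (paired DESeq2 change 0.81, SE 0.19, adjusted p 0.00332). Ctss, whose product trims the invariant chain, was at 146, 137 and 63.9 CPM against 174, 182 and 90.5 CPM (0.38, SE 0.11, adjusted p 0.0431). Both were lowest in the number 3 libraries of each genotype, and the other 7 endosomal genes did not pass, with Psap the most abundant at 720.2 ± 118 and 689 ± 256 CPM.

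The partners through which CIITA acts did not pass in any fit with or without the block. All 8 lay between 19.7 and 114 CPM in each library, and their paired DESeq2 changes ran from -0.27 (Nfyb) to 0.20 (Nfyc and Creb1). Nfyb, a subunit of NF-Y, was the most abundant, at 89.9 ± 25.2 CPM in wild-type cultures against 75.3 ± 21.3 CPM in knockout cultures. On the interferon-γ route, which can induce Ciita, Ifng was at 60.0, 15.5 and 3.64 CPM in wild-type cultures against 197, 17.4 and 7.02 CPM in knockout cultures (paired DESeq2 change 0.94, SE 0.27, adjusted p 0.0220). Ifng was highest in knockout 1, and its ratio was 3.28, 1.12 and 1.93 in pairs 1, 2 and 3. All cultures held the antibody to IFN-γ, and a link of Ifng to the class II values was not tested. The 6 receptor, kinase and factor genes of that list did not pass.

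Genes of class I presentation, including 4 that lie inside the class II region, did not pass in any fit. For these 9 genes the median paired DESeq2 change was -0.02, and B2m, the light chain and the most abundant, was at 1582 ± 455 and 1680 ± 553 CPM. Their paired changes lay between -0.10 (Psmb8) and 0.18 (Psmb9), against 0.81 for the neighbouring H2-Ob. March1, a ligase that removes class II from the surface, was at 3.08, 2.05 and 0.585 CPM in wild-type cultures against 5.16, 4.56 and 1.32 CPM in knockout cultures and did not pass (paired DESeq2 change 1.00, SE 0.36, adjusted p 0.132). In its list of 3 surface turnover genes Cd83 was the most abundant, at 33.0 ± 9.46 and 50.5 ± 38.3 CPM. Of the receptors for class II on T cells, Cd4 was at 531 ± 45.1 and 420 ± 197 CPM and Lag3 at 392 ± 247 and 392 ± 204 CPM. The 4 costimulatory ligand genes did not pass, with Cd86 the most abundant at 21.7 ± 3.29 and 25.7 ± 7.61 CPM.

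**Figure D5:**
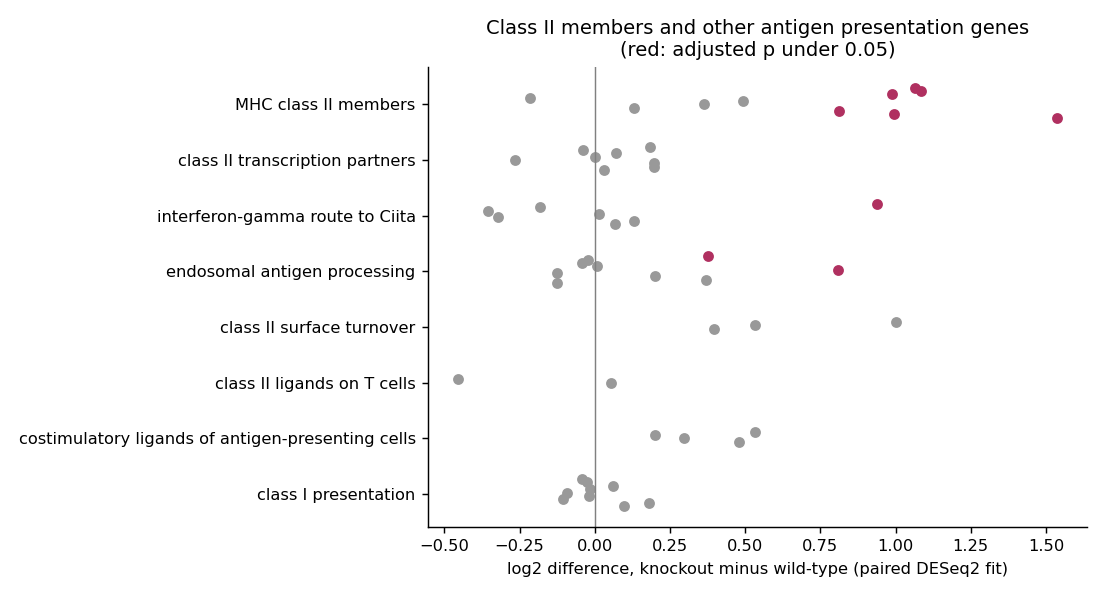
Paired DESeq2 log2 change, knockout minus wild-type (horizontal axis), of each gene in 8 lists (rows); red points have an adjusted p under 0.05. The class II row holds 6 red points between 0.81 and 1.54, the interferon-γ and endosomal rows hold 3 in all, and the class I row lies between -0.10 and 0.18.

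At the level of transcripts, coding forms made up most of each member. Of the 25 transcripts 16 are protein-coding, 23 were tested alone in edgeR and 0 passed, with 1 at an unadjusted p under 0.05 (H2-Ob-003, at a mean of 1.39 CPM), against 0 past the threshold and 630 at an unadjusted p under 0.05 among all 36508 tested. The most abundant transcript of Cd74, Cd74-201, held 86.3% to 91.2% of its counts. Cd74-202 and Cd74-203 carry an extra exon of 192 nt (chromosome 18, 60811294 to 60811485, GENCODE M21), the exon of the long invariant chain form that inhibits endosomal proteases. Together they held 12.4% ± 1.25 of Cd74 in wild-type and 11.7% ± 2.58 in knockout libraries, a difference smaller than the spread. H2-Eb1 and Ciita have 1 transcript each in the table.

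The transcripts of H2-Aa and H2-Ab1 were divided unevenly. H2-Aa-001 held 95.6%, 69.2% and 97.5% of H2-Aa in wild-type 1, 2 and 3 and 86.2%, 76.3% and 99.9% in knockout 1, 2 and 3, and H2-Aa-004, a shorter coding form of 826 nt, held most of the rest in the number 1 and 2 libraries and almost nothing in the number 3 libraries. H2-Ab1-001 held 75.6% to 99.1% of H2-Ab1, with the rest in the retained-intron transcripts H2-Ab1-002 (mean 7.71 CPM) and H2-Ab1-003 (1.51 CPM). The H2-Aa-001 share was lowest in the number 2 and highest in the number 3 libraries of both genotypes, whereas that of H2-Ab1-001 had no order common to the genotypes. H2-DMa-002, a retained-intron transcript at a mean of 10.8 CPM, held 10.2% to 19.8% of H2-DMa, and H2-Oa-002, also a retained-intron form, 6.33% to 15.04% of H2-Oa. H2-Ob-001 held 72.7% to 89.5% of H2-Ob, and H2-DMb1-001 and H2-DMb2-001 held 82.6% or more of their genes. The counts are estimates that divide shared reads among transcripts, so the sums per gene are firmer than these shares.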

How the data were processed

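The authors deposited an estimated count for each transcript in each of the 6 libraries, per the file headers, beside each transcript's length; the deposited GC fraction was not used in a fit. Libraries were stranded mRNA libraries, per the labels' protocols. The submitters' processing notes list Bowtie2 2.1.0, eXpress 1.3.1 and the GRCm38 build; which annotation release was used is not given in the sources used here. Short transcripts, under 300 nt, were left out in an alternative.

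Estimated counts were summed per gene and rounded. CPM used TMM-scaled library sizes. Ratios and folds within pairs are quotients of CPM without an offset. Log2 differences of a gene within pairs, their medians and their directions used log2(CPM + 0.5), which shrinks differences of low genes such as Ciita. Precision follows from library totals of 47335736 to 49743762; the limit of 3 counts behind a 0 covers counting error only. edgeR 4.0.16 (quasi-likelihood, filterByExpr, SE implied by the F statistic), DESeq2 1.42.0 and limma 3.58.1 ran in R 4.3.3 on all genes and were tested on simulated data; Python 3.11.15 was used for the rest. Of the genes in the paired DESeq2 fit, 880 had no adjusted p. Counts of every 2 libraries differed beyond sampling noise, with chi-square over degrees of freedom from 53.3 to 254.8.

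Deviations from the group means correlated at 0.60, 0.45 and 0.64 for same-number libraries (each above the minimum of 0.1) and at -0.47 to -0.17 for the others. Same-number libraries were therefore treated as pairs. Deviations cancel out within a genotype, so positive same-number values force the others to be negative on average and those add no support. With 3 libraries per genotype few matchings are possible, so the support for pairing is limited. No label says what a shared number stands for.

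Named were all members, their transcripts with a mean of at least 1 CPM, pathway genes past the threshold or most abundant in their list, the most abundant marker of each list, and the 10 nearest profiles. Named beyond that rule, after their values were seen, were H2-Ea-ps, Igkc, Ebf1, Cd8b1, Siglech, Itgam, Clec7a, Cd5, Cd6, Lag3, March1, Nfyc, Creb1, Psmb8 and Psmb9. Members and lists were chosen with earlier results of these data known. Some items that this rule names are not reported here. March1 and March8, stored as dates, were found by gene ID, Adgre1 as Emr1, and Ighd is not analysed here.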

Additional observations from a re-analysis of the deposited data

How the results depend on the processing

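For the 10 members, 21 other settings were run (RLE scaling, no filter, DESeq2, limma-voom, the replicate block, sums without short transcripts, transcripts not summed, and each library or pair left out; the DESeq2 fits without a pair were added after seeing the data). H2-Aa, H2-Ab1, H2-Eb1, Cd74, Ciita, H2-Ob and H2-DMb2 stayed higher in knockout in all 21. With 1 library left out, H2-DMa ran from -0.42 to 0.070 (above 0 without wild-type 1, at 0.06, or knockout 3), H2-DMb1 from -0.016 to 0.99 and H2-Oa from -0.12 to 0.44 (both below 0 without knockout 1); the cause was not tested. The median over members ran from 0.20 to 1.75 with 1 library left out. Members called were 6 with the replicate block in DESeq2, and 5 to 6 when a pair was also left out. All genes called were 13 in DESeq2 and 381 with the replicate block in DESeq2, 0 to 1 in edgeR with 1 library left out, 0 to 8 in the paired edgeR fits without a pair and 185, 262 and 144 in the paired DESeq2 fits without pairs 1, 2 and 3. Called among the 42 other route genes were 3 in DESeq2 with the replicate block, and 0, 2 and 1 without pairs 1, 2 and 3; the block changed no call in edgeR or limma-voom. The class II sum per B cell marker sum had a log2 difference of -0.12, ran from -0.40 to 0.27 with 1 library left out, and was 0.067 without Igkc. The common dispersion in edgeR was 0.169 without and 0.0601 with the block, and the SE of the H2-Aa change was 0.97 and 0.11.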
